A study of Mus musculus with 21 samples.

Results

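The genes described here encode the histone H3 lysine 4 (H3K4) methyltransferases of the MLL/COMPASS family and the core proteins they share. They were chosen by name: the enzymes Kmt2a, Kmt2b, Kmt2c, Kmt2d, Setd1a and Setd1b, and the core genes Wdr5, Rbbp5, Ash2l and Dpy30. These 10 genes are among 24984 in the count table, and all 10 are among the 16959 genes that passed the filter on low counts and were tested. The assay was BrU-seq, a measure of nascent RNA in which bromouridine built into RNA during its synthesis marks that RNA for isolation and sequencing. The cells were primary cortical neuron cultures of CD1 mice at day 17 in vitro, unsorted as far as the labels say. Every culture was held for 30 min in DMSO or in 25 µM MM401, then in 40 µM bicuculline-methiodide or in water, its vehicle, and bromouridine (2 mM) was present for the final 30 min. The groups were DMSO with water for 4 h, DMSO with bicuculline for 1 h and for 4 h, MM401 with water for 1 h and for 4 h, and MM401 with bicuculline for 1 h and for 4 h. Each group had 3 libraries, 21 in all, described in the labels as biological replicates of mixed sex. The labels do not say whether cultures of different groups came from the same animals. MM401 with water for 4 h, replicate 3, held 316741 counts, 0.503% of the others' median, and was left out, so that this group has 2 libraries.

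H3K4 methylation marks active promoters and enhancers. The SETD1 enzymes lay down much of the trimethylation at promoters, MLL1 (Kmt2a) and MLL2 (Kmt2b) act at narrower sets of promoters that include the Hox genes, and MLL3 (Kmt2c) and MLL4 (Kmt2d) monomethylate enhancers. These enzymes work weakly without the core of WDR5, RBBP5, ASH2L and DPY30, and MLL1 depends on WDR5 more than its relatives do. MM401 is a peptidomimetic that occupies the pocket of WDR5 to which MLL1 binds. Bicuculline antagonises GABA-A receptors, which raises the firing of cortical networks, and mutations of several of these enzymes cause neurodevelopmental disorders.

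The 20 libraries used held 49886348 to 87939384 counts. Values below are CPM, counts scaled to the library total after TMM normalisation. Tests are edgeR's quasi-likelihood F test, two-sided, with Benjamini-Hochberg adjustment over all 16959 genes, and a gene was called at an adjusted p under 0.05. Bicuculline acted in both pretreatments: Fos, Npas4 and Bdnf, which neurons transcribe when active, were called higher in all 4 comparisons with water, with log2 fold changes from 1.18 (Fos, DMSO, 4 h) to 4.43 (Npas4, DMSO, 1 h). All 5 neuronal markers (Rbfox3, Tubb3, Map2, Snap25, Syt1) had counts, and their summed level was 4523 to 7194 CPM. The 6 astrocyte markers summed to 425 to 873 CPM, the 6 oligodendrocyte lineage markers to 142 to 192, the 5 microglial markers to 21.1 to 36.1, and the 4 markers of endothelium and mural cells to 6.57 to 11.7, with Cldn5 at 0 in 16 of the 20 libraries. Most of these sums were higher with bicuculline: the bicuculline libraries were all above water for 4 of the 7 lists at 1 h and 6 at 4 h in DMSO, and for 5 and 7 in MM401. In DMSO the neuronal sum was 4523 to 5672 CPM in water, 5524 to 5921 at 1 h and 6693 to 7194 at 4 h. The sum of the 3 inhibitory neuron markers was 317 to 335, 483 to 562 and 633 to 675, and that of the 4 excitatory markers 75.9 to 87.7, 114 to 143 and 130 to 152. The astrocyte sum was 459 to 692, 731 to 837 and 602 to 678, and the oligodendrocyte lineage sum 142 to 164, 170.1 to 184 and 172 to 187. At 1 h in MM401 the neuronal sum was 4566 to 4844 CPM in water and 5350 to 6380 in bicuculline, the inhibitory sum 323 to 335 and 539 to 609.6, and the astrocyte sum 527 to 710.2 and 797 to 873. At 4 h in MM401 the neuronal sum was 5342 to 5482 and 6045 to 6616, and the inhibitory sum 322 to 378 and 578 to 637. Their part in the results below was not tested, and in such bulk cultures a change in the number of cells of a type and one in the RNA per cell cannot be told apart.

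Kmt2a lies at chr9:44803354-44881274 (mm10, minus strand) and spans 77.9 kb. Kmt2c, at chr5:25271794-25498783 on the minus strand, is the longest member with 227 kb. Rbbp5 covers 28.3 kb at chr1:132477366-132505665, and Wdr5 21.4 kb at chr2:27515146-27536538, both on the plus strand. The others span 19.9 to 39.5 kb: Kmt2b at chr7:30568854-30588726, Kmt2d at chr15:98831668-98871205, Setd1a at chr7:127777388-127800119, Setd1b at chr5:123142192-123168630, Ash2l at chr8:25816000-25847694 and Dpy30 at chr17:74299473-74323944. None of the 10 overlaps another gene of the table. Counts covered the whole gene, introns included.

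RefSeq promoters were given for 7 members (GRCm38.p6, 250 bases before the start). They are shown for the 2 members called higher after 1 h of bicuculline in DMSO, Kmt2c (chr5:25498784-25499033, minus strand) and Kmt2a (chr9:44881290-44881539, minus strand). They are also shown for 2 core members called lower there, Rbbp5 (chr1:132477117-132477366, plus strand) and Wdr5 (chr2:27514897-27515146, plus strand). The calls of Kmt2a and Wdr5 were lost in 7 and 10 of 13 alternative fits. Kmt2d had the same log2 fold change as Kmt2a, 0.19, but was not called. Capitals mark the GC box core GGGCGG, to which SP1 family factors bind, on either strand.
Kmt2c: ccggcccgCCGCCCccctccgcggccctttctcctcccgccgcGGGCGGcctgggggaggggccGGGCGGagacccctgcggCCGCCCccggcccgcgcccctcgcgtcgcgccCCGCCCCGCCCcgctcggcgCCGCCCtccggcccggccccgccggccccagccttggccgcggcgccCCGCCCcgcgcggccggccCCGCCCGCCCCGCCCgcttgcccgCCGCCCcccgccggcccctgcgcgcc
Kmt2a: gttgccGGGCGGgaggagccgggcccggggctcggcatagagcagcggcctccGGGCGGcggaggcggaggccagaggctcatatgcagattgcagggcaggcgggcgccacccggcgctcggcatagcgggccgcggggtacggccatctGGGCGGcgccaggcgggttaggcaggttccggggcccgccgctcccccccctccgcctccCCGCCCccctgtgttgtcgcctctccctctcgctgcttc
Rbbp5: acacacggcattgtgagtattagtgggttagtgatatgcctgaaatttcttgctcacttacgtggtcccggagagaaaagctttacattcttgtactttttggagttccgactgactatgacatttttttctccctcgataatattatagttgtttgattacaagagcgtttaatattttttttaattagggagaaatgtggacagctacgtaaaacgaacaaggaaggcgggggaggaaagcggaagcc
Wdr5: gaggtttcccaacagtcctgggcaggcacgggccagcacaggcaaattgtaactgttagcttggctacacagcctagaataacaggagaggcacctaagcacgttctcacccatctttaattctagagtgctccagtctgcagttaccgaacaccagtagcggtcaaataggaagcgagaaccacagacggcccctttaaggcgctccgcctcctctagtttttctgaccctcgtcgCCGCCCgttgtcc
The Kmt2c window holds 48 CpG dinucleotides at 91.6% G+C and has 12 GC boxes. Kmt2a has 29 CpG at 76.8% G+C and 4 GC boxes. The Rbbp5 window holds 10 CpG at 40% G+C and no GC box, and Wdr5 holds 12 CpG at 54.4% with 1 GC box. The median over 32851 mouse promoters of this length is 6 CpG and 52.4% G+C, and 32.7% of them hold GGGCGG. Kmt2d (26 CpG, 4 GC boxes) and Setd1a (25 CpG, no GC box) lie between. Dpy30, a core gene, has 4 RefSeq entries, none with a GC box: 1 holds 1 CpG at 40% G+C, and the others hold 21, 28 and 34 CpG at 66%, 68% and 71.6%. Searched on both strands, the motifs named for activity-dependent factors were in none of the printed windows: TGACGTCA (the CRE, in 1.55% of promoters), TGACTCA (AP-1, 4.46%), GCGGGGGCG and GCGTGGGCG (EGR, 2.57% and 0.536%). The E-box CACGTG (6.02%) was in none of them either, nor was TGACG, the short form of the CRE (17.8%, the full site included), which 3 of the 4 Dpy30 windows hold. These matches describe letters in a short window and say nothing of binding.

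Per kilobase of gene, Kmt2a, Kmt2c and Kmt2d stood highest and Setd1b and Dpy30 lowest. In counts per kilobase scaled as CPM, averaged over 20 libraries, the level was 2.62 ± 0.20 (SD) for Kmt2a, 1.91 ± 0.24 for Kmt2c and 1.65 ± 0.17 for Kmt2d. Setd1a followed at 1.03 ± 0.083, Rbbp5 at 0.955 ± 0.13, Ash2l at 0.896 ± 0.098, Kmt2b at 0.868 ± 0.11 and Wdr5 at 0.849 ± 0.11. Setd1b (0.486 ± 0.062) and Dpy30 (0.435 ± 0.026) were below the median of all tested genes, 0.592. Kmt2a exceeded Kmt2c in all 20 libraries, although their ranges overlapped. Between neighbours in this order, only Kmt2d over Setd1a and Wdr5 over Setd1b had ranges that did not overlap. Setd1a, Rbbp5, Ash2l, Kmt2b and Wdr5 form a run of neighbours not separated by their spread: Kmt2b exceeded Wdr5 in 9 of 20 libraries and Setd1a exceeded Rbbp5 in 13.

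**Figure D1:**
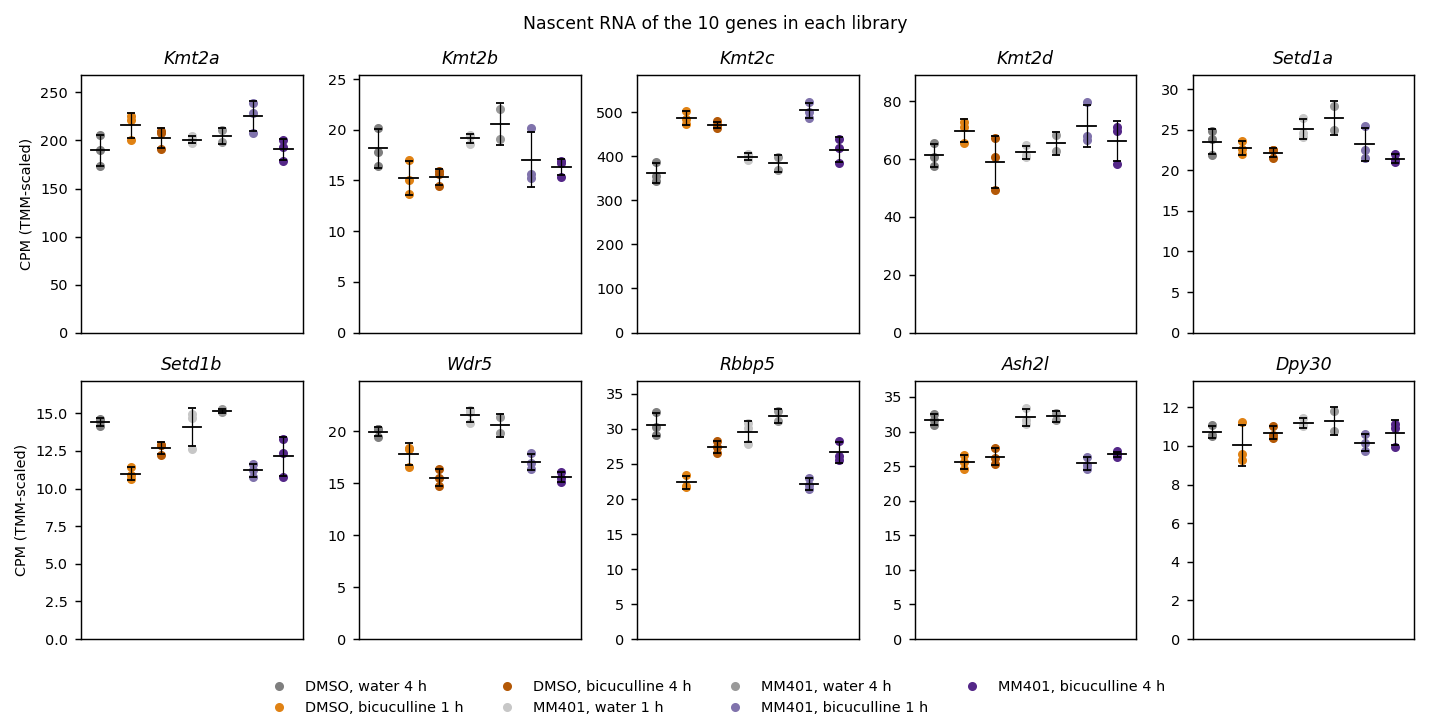
CPM (TMM-scaled, linear axis from 0) of each of the 10 genes in the 20 libraries, by group; each point is a library, the horizontal line the group mean and the bar 1 SD. All 12 bicuculline libraries lie below all 8 water libraries for Wdr5 (14.7 to 18.4 against 19.5 to 22.0 CPM) and for Ash2l (24.6 to 27.7 against 30.9 to 33.5 CPM).

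After bicuculline, the core genes Wdr5, Rbbp5 and Ash2l were called lower in all 4 comparisons with water and the enzyme gene Setd1b in 3 of them, while Kmt2c was called higher in 3. The other enzymes were called in 0 to 3 of the 4. In DMSO, 2 members were called higher and 5 lower at 1 h, where 44.6% of all genes tested were called (20% higher and 24.5% lower). At 4 h, 1 was called higher and 4 lower (background 49.2%, of which 23.7% higher and 25.5% lower). In MM401, 1 was higher and 4 lower at 1 h (39.9%, with 18.1% higher and 21.8% lower), and at 4 h none was higher and 6 were lower (44.6%, with 23% higher and 21.7% lower). Because so many genes of the table were called, a count of called members says little about them as a group. The count at 1 h in DMSO was 4 without bicuculline replicate 3, and that at 4 h was 3 without bicuculline replicate 1, bicuculline replicate 2 or water replicate 1. The median log2 fold change of the 10 was -0.13, -0.12, -0.16 and -0.26 in these comparisons, beside -0.038, -0.024, -0.0017 and 0.016 over all genes. Members with groups that did not overlap numbered 5, 6, 8 and 6, where 47.4%, 52.5%, 51.1% and 66.6% of all genes had such groups. Both DMSO responses were taken against DMSO with water for 4 h, because no DMSO group in water for 1 h was analysed here, so they share their controls. Each MM401 response was taken against MM401 in water for the same time.

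**Figure D2:**
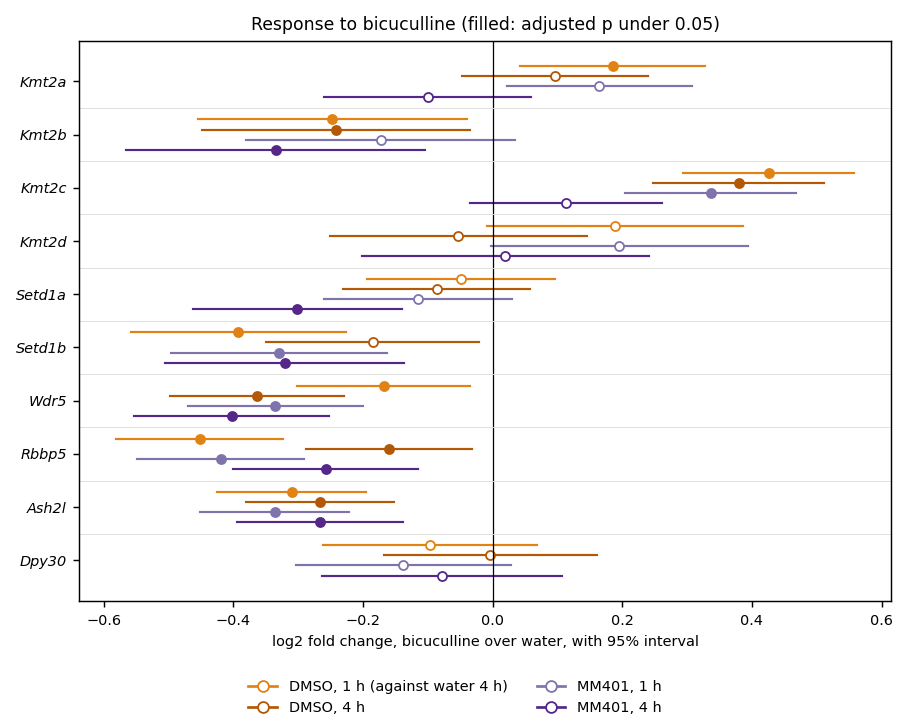
log2 fold change over water of the 10 genes in the 4 bicuculline comparisons, with the 95% interval of the fit; filled points have an adjusted p under 0.05. Rbbp5, Ash2l and Wdr5 lie left of 0 in all 4, Kmt2c right of 0 in all 4 and called in 3, and the 4 values of Dpy30, between -0.14 and -0.0040, are all open.

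The scaling of libraries bears on every one of these values. TMM factors were 1.02 to 1.16 in water and 0.895 to 1.03 in bicuculline libraries. With plain library totals the median log2 fold change of all genes shifted by -0.19 (DMSO, 1 h), -0.27 (DMSO, 4 h) and -0.21 (MM401, 1 h), and the share of calls that were higher went from 44.9% to 21.2%, from 48.1% to 18.8%, from 45.4% to 16.3% and, in MM401 at 4 h, from 51.5% to 40.3%. Relative to the median of all genes the members kept their places. This follows from the construction, because a scaling factor moves all genes of a library alike, and it is no test of the calls. At 1 h in DMSO Kmt2c stood 0.46 above the median of all genes with TMM and 0.47 above it with plain totals. Rbbp5 stood at -0.41 relative to that median with both.

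WDR5 is the subunit that grips arginine motifs of MLL1 and of the H3 tail, and it is the target of MM401. In DMSO, Wdr5 read 20.2, 20.2 and 19.5 CPM in water, 16.5, 18.4 and 18.3 after 1 h of bicuculline and 15.5, 14.7 and 16.3 after 4 h. The MM401 libraries read 20.8, 21.8 and 22.0 in water for 1 h, 19.8 and 21.3 in water for 4 h, 16.3, 17.9 and 16.97 in bicuculline for 1 h and 15.1, 15.5 and 16.1 for 4 h. Every bicuculline library was below every water library, in both pretreatments. Wdr5 and Ash2l were the 2 members of 10 with this separation of 12 from 8 libraries, a comparison made after seeing the data, in which 17.3% of all genes did not overlap. In DMSO, Wdr5 fell by 22.3% at 4 h (log2 fold change -0.36 ± 0.065 SE, edgeR adjusted p = 7.59e-05). In MM401 it fell by 20.8% at 1 h (-0.34 ± 0.065, adjusted p = 2.76e-04) and fell by 24.3% at 4 h (-0.40 ± 0.072, adjusted p = 1.14e-04). The smaller fall at 1 h in DMSO, -0.17 ± 0.065 (adjusted p = 0.038), was no longer called in any of 5 fits without 1 library: without bicuculline replicates 1 or 3, or water replicates 1, 2 or 3, its adjusted p was 0.064 to 0.18. It was also lost with DESeq2 (adjusted p = 0.115).

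RBBP5 joins ASH2L in the dimer that activates the catalytic domain of these enzymes. Rbbp5 fell most at 1 h and less at 4 h. In DMSO it read 32.4, 29.2 and 30.3 CPM in water, 21.7, 23.5 and 21.9 at 1 h and 27.5, 26.5 and 28.2 at 4 h. Under MM401 the values were 27.9, 30.8 and 30.2 in water for 1 h, 32.6 and 31.2 in water for 4 h, 21.9, 21.5 and 23.0 in bicuculline for 1 h and 25.5, 26.2 and 28.3 for 4 h. The 6 libraries of 1 h bicuculline, 21.5 to 23.5 CPM, were below all 14 others, and the 4 h libraries lay between them and water, overlapping only the lowest water library of MM401 at 1 h. At 1 h Rbbp5 fell by 26.9% in DMSO (-0.45 ± 0.062, edgeR adjusted p = 4.24e-06) and fell by 25.2% in MM401 (-0.42 ± 0.062, adjusted p = 1.34e-05). At 4 h it fell by 16.4% in MM401 (-0.26 ± 0.069, adjusted p = 0.0042). In DMSO the value at 4 h was -0.16 ± 0.061 (adjusted p = 0.035), and it lost its call without bicuculline replicates 1 or 2 or water replicate 1 (adjusted p = 0.070 to 0.15) and with DESeq2 (adjusted p = 0.067). From 1 h to 4 h of bicuculline Rbbp5 rose in both pretreatments, by 22.5% in DMSO (0.29 ± 0.062, adjusted p = 7.42e-04) and 20.5% in MM401 (0.27 ± 0.062, adjusted p = 0.0018). The first of these was not called with plain library totals (0.21, adjusted p = 0.067).

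ASH2L is the partner of RBBP5, and its gene had the narrowest range of bicuculline responses among the 10. In DMSO, Ash2l read 30.9, 32.6 and 31.7 CPM in water, 24.6, 25.5 and 26.7 at 1 h and 26.2, 25.3 and 27.7 at 4 h. With MM401 it read 31.6, 33.5 and 31.1 in water for 1 h, 31.6 and 32.7 in water for 4 h, 25.1, 24.6 and 26.4 in bicuculline for 1 h and 26.4, 26.7 and 27.1 for 4 h. No bicuculline library reached the lowest water library. Its log2 fold changes were -0.31 ± 0.055 and -0.27 ± 0.055 in DMSO at 1 h and 4 h (edgeR adjusted p = 1.01e-04 and 3.75e-04). In MM401 they were -0.34 ± 0.056 and -0.27 ± 0.062 (adjusted p = 4.89e-05 and 0.0013). The call held in every alternative tried. DPY30, a small protein that binds ASH2L, completes the core, and Dpy30 was not called in any comparison. Its libraries ranged from 9.28 to 11.3 CPM in bicuculline and from 10.5 to 11.8 in water, and its log2 fold changes with water were between -0.14 and -0.0040. The 95% intervals of these changes ran from -0.30 to 0.16. With plain library totals it was called lower in 3 of the 4.

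Kmt2c, the gene of the enhancer enzyme MLL3, was the one member called higher in more than 1 comparison with water. In DMSO it read 387, 356 and 345 CPM in water, 484, 474 and 504 at 1 h and 465, 470.2 and 479.7 at 4 h. The values in MM401 were 406, 391 and 402 in water for 1 h, 369.8 and 398 in water for 4 h, 488, 523 and 501 in bicuculline for 1 h and 419, 440.4 and 386 for 4 h. In DMSO both bicuculline groups were above water without overlap. In MM401 this held at 1 h, whereas at 4 h the groups overlapped. Kmt2c rose by 34.3% at 1 h and 30.1% at 4 h in DMSO (0.43 ± 0.064 and 0.38 ± 0.064, edgeR adjusted p = 1.31e-05 and 3.65e-05). It rose by 26.3% at 1 h in MM401 (0.34 ± 0.064, adjusted p = 2.16e-04). At 4 h in MM401 the value was 0.11 ± 0.071 (adjusted p = 0.21), and from 1 h to 4 h it fell by 17.7% (-0.28 ± 0.063, adjusted p = 0.0015). Its paralog Kmt2d (MLL4) was not called against water: its log2 fold changes were 0.19 and -0.053 in DMSO and 0.20 and 0.019 in MM401, with SE of 0.095 to 0.11. Kmt2d libraries spread widely, with 49.4, 67.2 and 60.6 CPM in DMSO after 4 h of bicuculline.

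Over all genes the response to bicuculline was higher in the longest genes than in the shortest in 3 of the 4 comparisons, and the part of length in the members' values was not tested beyond the correction given here. The median log2 fold change of all genes at 1 h in DMSO went from -0.19 in genes under 10 kb to 0.24 in the 962 genes of 200 kb and over. At 1 h in MM401 it went from -0.035 to 0.24, and at 4 h from -0.19 to 0.24 in DMSO and from 0.054 to -0.014 in MM401. With a length trend removed from the counts, Kmt2c kept its calls at 0.21 (DMSO, 1 h), 0.15 (DMSO, 4 h) and 0.14 (MM401, 1 h), beside 0.43, 0.38 and 0.34 without the correction. The fall from 1 h to 4 h in MM401 became -0.14. Rbbp5 was at -0.39 and -0.34 at 1 h after the same correction, Ash2l between -0.27 and -0.26 in all 4 comparisons, and Wdr5 at -0.30 at 4 h in DMSO. In DMSO the calls of Kmt2a (0.080, from 0.19), Kmt2b (-0.14, from -0.25) and Wdr5 (-0.068, from -0.17) at 1 h were lost with it. So were those of Kmt2b (-0.17, from -0.24) and Rbbp5 (-0.14, from -0.16, adjusted p = 0.0502) at 4 h, the latter with little change in its value.

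**Figure D3:**
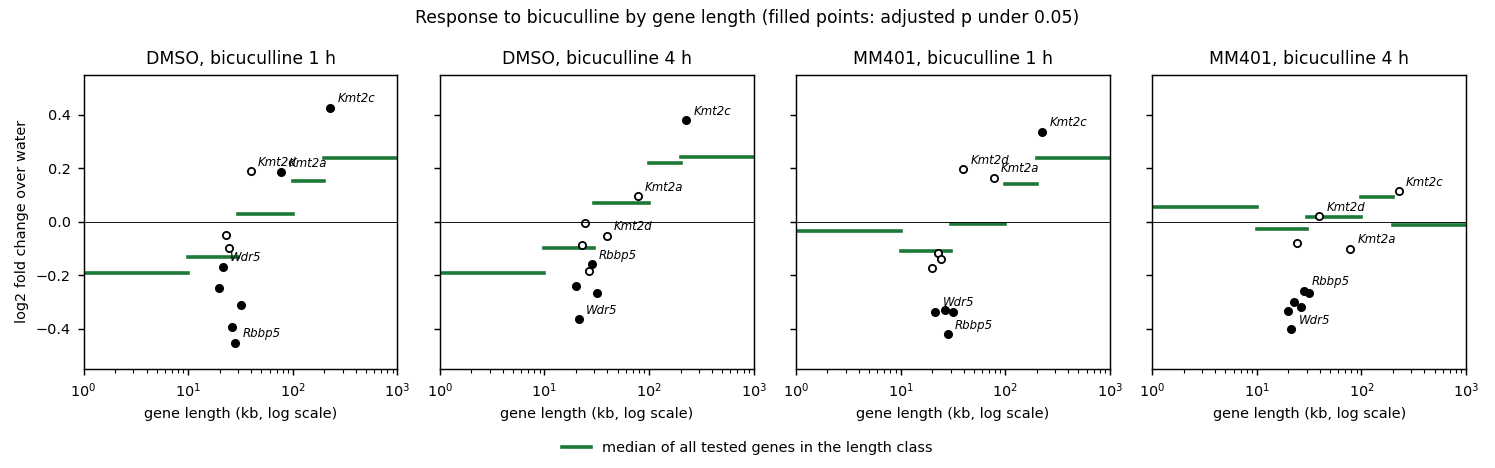
log2 fold change over water of the 10 genes against gene length (log axis), with green lines at the median of all tested genes in each of 5 length classes (the class under 10 kb is drawn from 1 kb and that of 200 kb and over to 1000 kb); filled points have an adjusted p under 0.05. Kmt2c lies above the line of its class in every panel, and Rbbp5, Ash2l, Setd1b and Wdr5 lie below theirs.

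Kmt2a, the gene of MLL1, the enzyme whose binding to WDR5 the compound blocks, was called higher with bicuculline in 1 of the 4 comparisons. In DMSO it read 205, 190.3 and 174 CPM in water, 201, 225 and 221 at 1 h and 191, 209 and 208 at 4 h. In MM401 it read 201, 205 and 197 in water for 1 h, 199 and 211 in water for 4 h, 239, 229 and 208 in bicuculline for 1 h and 193, 201 and 179 for 4 h. In DMSO the bicuculline and water libraries overlapped at both times. The rise of 13.7% at 1 h in DMSO (0.19 ± 0.069, edgeR adjusted p = 0.033) was called, and DESeq2 called it too (0.22, adjusted p = 0.010). With plain library totals, which lower the median of all genes as given above, the value turned to -0.0012, and relative to that median it was 0.22 with TMM and 0.23 with plain totals. It was not called without bicuculline replicates 2 or 3 or water replicate 3 (adjusted p = 0.067 to 0.12), nor after the length correction (0.080, adjusted p = 0.30). In MM401 the bicuculline libraries at 1 h were all above water, and the value was 0.16 ± 0.069 (adjusted p = 0.062). It was called with DESeq2 (0.19, adjusted p = 0.032), with the replicate block (adjusted p = 0.046) and without bicuculline replicate 3, and was -0.051 with plain totals. At 4 h the values were 0.096 ± 0.069 in DMSO and -0.10 ± 0.077 in MM401, neither called. From 1 h to 4 h of bicuculline Kmt2a fell by 15.2% in MM401 (-0.24 ± 0.069, adjusted p = 0.0099), a call lost without 1 h replicate 1 or 4 h replicate 3 (adjusted p = 0.063 and 0.065).

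Kmt2b, the paralog that encodes MLL2, read 20.2, 17.9 and 16.4 CPM in DMSO with water, 13.7, 17.02 and 15.1 at 1 h and 14.4, 15.9 and 15.6 at 4 h. In MM401 it read 18.6, 19.4 and 19.5 in water for 1 h, 22.1 and 19.1 in water for 4 h, 20.1, 15.3 and 15.7 in bicuculline for 1 h and 16.9, 16.7 and 15.4 for 4 h. Single libraries stood out, such as the first replicate of MM401 with bicuculline for 1 h, which was above every water library of its time. Kmt2b was called lower in DMSO at 1 h (-0.25 ± 0.10, edgeR adjusted p = 0.048) and 4 h (-0.24 ± 0.10, adjusted p = 0.049) and in MM401 at 4 h (-0.33 ± 0.11, adjusted p = 0.018). None of these 3 calls held throughout. The call at 1 h was lost without bicuculline replicates 1 or 3 or water replicates 1 or 2 (adjusted p = 0.11 to 0.21). That at 4 h in DMSO was lost without any of the 3 bicuculline replicates or water replicates 1 or 2 (0.056 to 0.22), and that in MM401 without bicuculline replicate 3 or water replicate 1 (0.063 and 0.18). In MM401 at 1 h the value was -0.17 ± 0.10 (adjusted p = 0.18).

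Paralogs set against each other within a library need no scaling between libraries, though a ratio of a longer to a shorter gene moves with any trend by length. The log2 ratio of Kmt2a to Kmt2b counts was 3.17 to 3.46 in the 8 water libraries, with a median of 3.40, and 3.52 to 3.90 in the 12 bicuculline libraries, with a median of 3.73. The ranges did not overlap, whereas those of Kmt2c/Kmt2d and Setd1a/Setd1b overlapped in the same pooled comparison. This pooling of groups was not planned, and the share of all gene pairs with such a separation was not computed. The mean difference was 0.34, against an SD of 0.090 among water and 0.13 among bicuculline libraries. Within each pretreatment and time the bicuculline libraries were also above their water group, by 0.44 and 0.34 in DMSO and 0.34 and 0.23 in MM401. Kmt2a is the longer gene, and after the length correction the values at 1 h in DMSO were 0.080 for Kmt2a and -0.14 for Kmt2b, beside 0.19 and -0.25 without it. Kmt2c over Kmt2d was 2.55 to 2.58 in DMSO with water, 2.73 to 2.94 at 1 h and 2.81 to 3.23 at 4 h. Both bicuculline groups were above water without overlap, and they overlapped each other. In MM401 bicuculline and water libraries overlapped at both times.

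SETD1A and SETD1B head the complexes that carry out most bulk promoter trimethylation. Setd1b read 14.6, 14.5 and 14.1 CPM in DMSO with water, 10.9, 10.6 and 11.4 at 1 h and 12.9, 12.2 and 12.9 at 4 h. In MM401 it read 12.6, 14.7 and 14.9 in water for 1 h, 15.1 and 15.3 in water for 4 h, 11.2, 11.6 and 10.8 in bicuculline for 1 h and 13.3, 10.8 and 12.3 for 4 h. Bicuculline libraries lay below their water group in each comparison, with no overlap. Setd1b fell by 23.8% at 1 h in DMSO (-0.39 ± 0.080, edgeR adjusted p = 3.89e-04). In MM401 it fell by 20.4% at 1 h (-0.33 ± 0.080, adjusted p = 0.0022) and fell by 19.9% at 4 h (-0.32 ± 0.089, adjusted p = 0.0055). At 4 h in DMSO the value was -0.19 ± 0.079 (adjusted p = 0.058). The rise from 1 h to 4 h in DMSO (0.21 ± 0.080, adjusted p = 0.049) was also called, and every alternative but the replicate block ended that call. Setd1a read 23.9, 24.9 and 21.9 CPM in DMSO with water, 22.0, 23.6 and 22.7 at 1 h and 21.5, 22.5 and 22.5 at 4 h, and was not called there (-0.049 ± 0.070 and -0.086 ± 0.070). In MM401 at 4 h it read 21.3, 21.1 and 22.0 in bicuculline against 27.9 and 25.0 in water, and was called lower (-0.30 ± 0.078, adjusted p = 0.0032). This call was lost without water replicate 1 (-0.24, adjusted p = 0.065), which left 1 water library, assumed to vary like the other groups. The log2 ratio of Setd1a to Setd1b counts at 1 h in DMSO was 0.99 to 1.15, above the 0.63 to 0.78 in water, and it overlapped with water in the other comparisons.

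Among the core genes, Rbbp5 and Wdr5 changed in proportion to each other between 1 h and 4 h of bicuculline. Their ratio restates the values of these genes and adds no test. Other core pairs were not compared, and the share of all gene pairs with such a change was not computed. The log2 ratio of Rbbp5 to Wdr5 counts, chosen after seeing the data, was 0.26, 0.35 and 0.39 after 1 h of bicuculline in DMSO and 0.79, 0.83 and 0.85 after 4 h. In MM401 it was 0.27, 0.43 and 0.44 at 1 h and 0.76, 0.76 and 0.82 at 4 h. The 4 h libraries were above the 1 h libraries in both pretreatments, by 0.49 and 0.40. Water for 4 h was also above water for 1 h in MM401 (0.55 and 0.72 against 0.42 to 0.50), by 0.18.

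**Figure D4:**
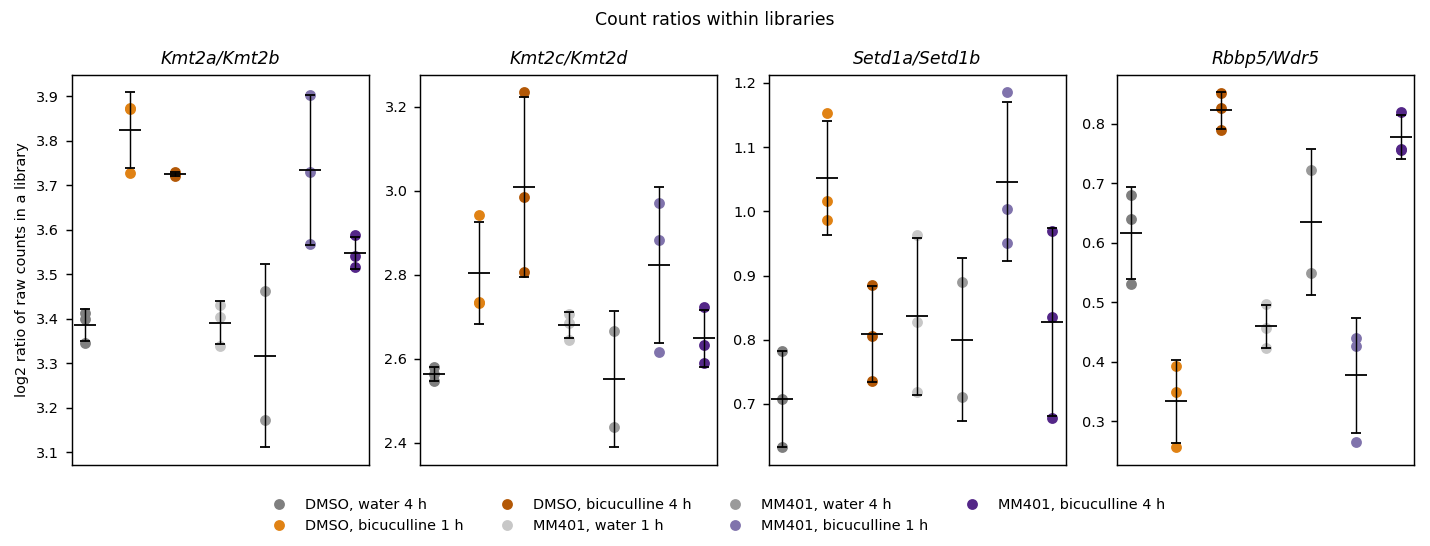
log2 ratio of raw counts of 4 gene pairs in each of the 20 libraries, by group; points are libraries, and bars the group mean with 1 SD. Kmt2a/Kmt2b is higher in all 12 bicuculline libraries than in all 8 water libraries, while the other pairs overlap in this respect. The group mean of Rbbp5/Wdr5 is lowest at 1 h and highest at 4 h of bicuculline in both pretreatments.

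Between 4 h and 1 h of bicuculline 3 members were called in DMSO, 2 higher and 1 lower, where 34.2% of all genes were called, and 3 in MM401, 1 higher and 2 lower, where 33.6% were. The libraries of 3 and 5 members did not overlap, where 43.3% and 45.1% of all genes did not. Rbbp5 rose in both. Wdr5 went the other way in DMSO, where it fell by a further 12.7% (-0.20 ± 0.065, edgeR adjusted p = 0.023), a call lost without 1 h replicate 2 or 4 h replicates 1 or 2 (adjusted p = 0.055 to 0.11). In MM401 the value for Wdr5 was -0.13 ± 0.066 (adjusted p = 0.13). Kmt2d had the most negative value in DMSO, with 72.8, 71.1 and 65.5 CPM at 1 h against 49.4, 67.2 and 60.6 at 4 h, groups that overlapped (-0.24 ± 0.095, edgeR adjusted p = 0.055). It was called in 8 of 13 alternatives, among them DESeq2 (adjusted p = 0.035), the replicate block (0.046) and the length correction (0.033), and its adjusted p was 0.0095 to 0.30 with 1 library left out. The Setd1b call in DMSO was lost without any one of the 6 bicuculline libraries of DMSO (adjusted p = 0.054 to 0.14). In DMSO the count of called members was 1 to 3 when each library was left out in turn, and it was 1 without 1 h replicate 2 or without 4 h replicate 1. Between water for 4 h and for 1 h in MM401, edgeR called none of the 10 (0.867% of all genes, 0.265% higher and 0.601% lower), and none had an unadjusted p under 0.05. The libraries of 2 members did not overlap there (31.9% of all genes).

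No change in the nascent RNA of these genes was called for MM401. Against DMSO, edgeR called none of the 10 members in water for 4 h (0.0826% of all genes called), in bicuculline for 1 h (0.0059%) or for 4 h (0%), or on average over these 3 matched conditions (0.13%, with 0.0413% higher and 0.0884% lower). DESeq2 called none either. At an unadjusted p under 0.05 there were 1, 0, 1 and 1 members, and 2194, 540, 1309 and 1001 of all genes. Averaged over the 3 conditions, Kmt2a differed by 0.029 on the log2 scale, with a 95% interval from -0.057 to 0.12, or -3.85% to 8.30%. Wdr5 differed by -0.0038 (-0.085 to 0.077), Rbbp5 by 0.0023 (-0.075 to 0.080) and Ash2l by 0.0092 (-0.060 to 0.078). The highest average was that of Kmt2b, 0.14 (0.017 to 0.27), with an edgeR unadjusted p of 0.027 and an adjusted p of 0.77. Over all 10 members the intervals of the average reached from -6.46% to 20.3%, and a larger average change of a member lies outside these intervals. In water for 4 h, Setd1a read 27.9 and 25.0 CPM in MM401 and 23.9, 24.9 and 21.9 in DMSO (0.17 ± 0.078, adjusted p = 0.37). It was 1 of 2 members whose libraries did not overlap there, with Setd1b, where 26% of all genes did not. In bicuculline for 1 h no member had libraries apart (7.15% of all genes).

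**Figure D5:**
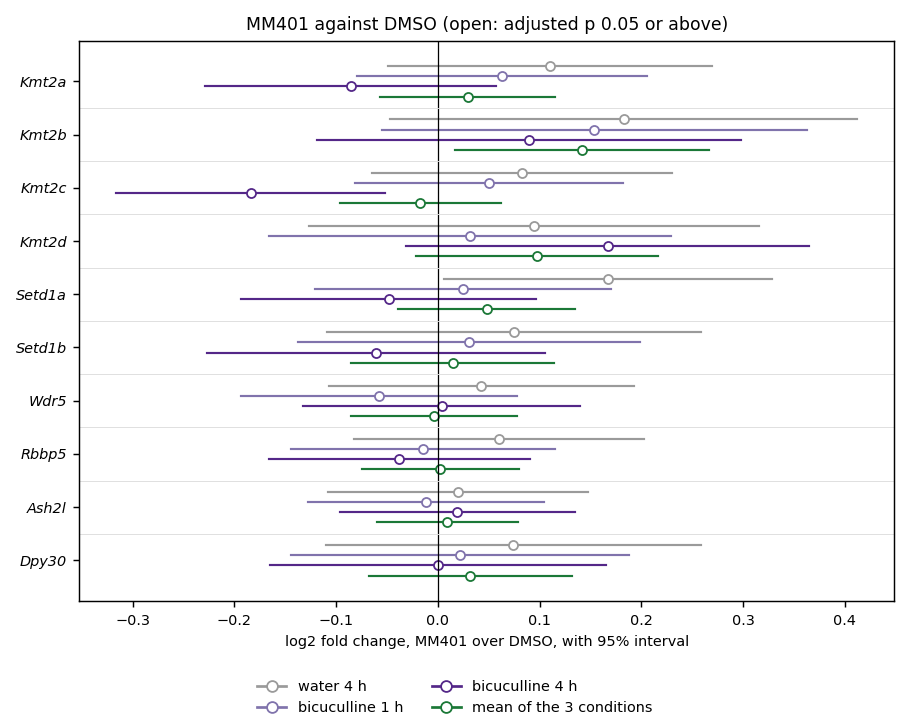
log2 fold change of MM401 over DMSO for the 10 genes in the 3 matched conditions and on average over them, with the 95% interval of the fit; open points have an adjusted p of 0.05 or above, which holds for all. The averages lie between -0.017 and 0.14.

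The bicuculline responses of the members were not shown to differ between the pretreatments. Interaction terms, the response in MM401 minus that in DMSO, gave no edgeR call among the 10 or among all genes at 4 h (0%) or at 1 h (0%), the latter with both responses taken against water for 4 h. At an unadjusted p under 0.05 edgeR had 1 and 0 members and 2552 and 1326 of all genes. DESeq2 called 294 of the 3807 genes to which it gave an adjusted p at 4 h (7.72%), 8 higher and 286 lower, and 10 of 13671 at 1 h (0.0731%). The member at 4 h was Kmt2c. Its rise was 0.38 in DMSO and 0.11 in MM401, a difference of -0.27 ± 0.095 with a 95% interval from -0.46 to -0.069 (edgeR unadjusted p = 0.010, adjusted p = 0.24). Kmt2c was among the 286 genes that DESeq2 called lower (-0.30, adjusted p = 0.045), and edgeR called it without DMSO water replicate 1 (adjusted p = 0.032). Without the other libraries in turn the value was between -0.32 and -0.22. With plain library totals it was -0.073, where the median of all genes was 0.22, beside 0.022 with TMM. Relative to that median it was -0.29 with both. The same difference over all genes ran with length, from a median of 0.25 under 10 kb to -0.26 at 200 kb and over, and after the length correction Kmt2c was at -0.069 (adjusted p = 0.81). In bicuculline for 4 h, Kmt2c was the only member with libraries of MM401 (419, 440.4 and 386 CPM) apart from those of DMSO (465, 470.2 and 479.7), where 17.5% of all genes were apart. Its value there was -0.18 ± 0.064 (edgeR adjusted p = 0.64). The neuronal marker sum was also lower in these MM401 libraries (6045 to 6616 CPM) than in those of DMSO (6693 to 7194), and its part in this difference was not tested. The log2 count ratios Kmt2a/Kmt2b and Kmt2c/Kmt2d were also lower in MM401 than in DMSO in this condition, with differences of -0.18 and -0.36 and libraries that did not overlap. In the same comparison the median of all genes ran from 0.090 under 10 kb to -0.15 at 200 kb and over, where 5.93% of genes were higher, and each ratio has the longer gene on top. After the length correction Kmt2c was at -0.075 there (adjusted p = 0.98), Kmt2d at 0.18, Kmt2a at -0.035 and Kmt2b at 0.065.

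A list of 17 other genes held partners of MLL1 and MLL2, some of them shared with other complexes (Men1, Psip1, Hcfc1, Hcfc2, Kat8, and Tasp1, the protease that cleaves MLL1), partners of MLL3 and MLL4 (Kdm6a, Paxip1, Pagr1a, Ncoa6), genes of the SETD1 side (Cxxc1, Wdr82, Bod1l, Bod1), the relative Kmt2e, and the methyltransferase genes Setd7 and Smyd3. Of these, 5 were called higher and 5 lower at 1 h in DMSO and 4 and 5 at 4 h. In MM401 they were 6 and 4 at 1 h and 4 and 4 at 4 h. Of all genes, 44.6%, 49.2%, 39.9% and 44.6% were called in these comparisons, with 20%, 23.7%, 18.1% and 23% higher and 24.5%, 25.5%, 21.8% and 21.7% lower. Their median log2 fold changes were -0.057, 0.069, 0.050 and -0.0050. Setd7, a monomethyltransferase outside the MLL family, rose by 0.84 ± 0.061 in DMSO and 0.59 ± 0.061 in MM401 at 1 h (edgeR adjusted p = 3.04e-10 and 8.41e-08). Among partners of MLL3 and MLL4, Kdm6a, the H3K27 demethylase, rose by 0.51 ± 0.070 at 4 h in DMSO (adjusted p = 3.38e-06), and Pagr1a, a small subunit, fell by 0.74 and 0.81 at 1 h and 4 h in DMSO on the log2 scale, with SE of 0.13 (adjusted p = 7.71e-05 and 1.96e-05). In MM401 the values of Pagr1a were -0.30 ± 0.13 at 1 h (adjusted p = 0.070, not called) and -0.47 ± 0.14 at 4 h (adjusted p = 0.011), and the interaction was called at neither time (adjusted p = 0.58 and 0.41). Bod1, of the SETD1 side, rose at 4 h by 0.50 ± 0.10 in DMSO (adjusted p = 3.17e-04) and 0.82 ± 0.12 in MM401 (adjusted p = 8.00e-06). Smyd3, another methyltransferase, was called higher at 1 h and, in MM401, lower at 4 h (-0.57 ± 0.10, adjusted p = 1.29e-04). At 4 h in DMSO its value was -0.12 (edgeR adjusted p = 0.30), and the interaction, -0.45, was not called (edgeR adjusted p = 0.23). Smyd3 spans 566083 bases, and the median interaction at 4 h of all genes of 200 kb and over was -0.26. Menin, the MLL1 and MLL2 cofactor that tethers these enzymes to chromatin, was called lower in all 4 comparisons, with Men1 between -0.46 and -0.30. Men1, named after its values were seen, had group means of 3.7 to 5.3 CPM. At 1 h in both pretreatments Psip1, Hcfc2 and Paxip1 were also called lower, and Hcfc1, Wdr82 and Kmt2e were called higher. Kmt2e was called higher at 4 h in DMSO as well (0.35 ± 0.063, edgeR adjusted p = 8.4e-05). No partner was called under MM401 in any matched condition (smallest edgeR adjusted p = 0.26). Pagr1a, Men1 and Bod1 span 2303, 5917 and 6714 bases. The median of all genes under 10 kb was -0.19 at 1 h and at 4 h in DMSO, and -0.035 and 0.054 in MM401. Kdm6a spans 117363 bases, and the median of genes of 100 to 200 kb at 4 h in DMSO was 0.22. Setd7 spans 45507 bases, and that of genes of 30 to 100 kb at 1 h in DMSO was 0.030. The part of length in the partners' values was not tested.

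Among genes known as MLL1 targets in blood or development, 5 were tested here (Meis1, Meis2, Pbx3, Mecom and Eya1), and Hoxa5, Hoxa7, Hoxa9, Hoxa10 and Hoxc8 did not pass the filter on low counts. None of the 5 was called for MM401 against DMSO, and their averages over the 3 conditions lay between -0.088 (Eya1) and 0.15 (Mecom). With bicuculline, 4 of the 5 were called higher at 4 h in each pretreatment, led in DMSO by Mecom (1.29 ± 0.21) and Meis2 (0.95 ± 0.077), and Pbx3 was not. Mecom was low, with group means in DMSO of 0.73 CPM in water and 1.81 in bicuculline for 4 h. In MM401 with water for 4 h it was at 1.01 ± 0.56 (SD of 2 libraries). Of all genes, 23.7% were called higher at 4 h in DMSO and 23% in MM401. At 1 h, 2 of the 5 were called higher in DMSO and 4 in MM401, where 20% and 18.1% of all genes were. All 5 are long genes (138543 to 558381 bases), and at 4 h in DMSO the median of all genes of 100 to 200 kb was 0.22 and that of genes of 200 kb and over 0.24, with 70.4% and 72.3% of them above 0. In MM401 these medians were 0.093 and -0.014.

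Across the 20 libraries, which share their treatments, the 45 pairs of members had Pearson correlations of log2 CPM from -0.85 (Kmt2c with Rbbp5) to 0.88 (Setd1b with Rbbp5), with a median of 0.31. The genes most like Kmt2a over these libraries were Dpp6 (r = 0.94, 910145 bases), Myo16 (0.93, 480833 bases) and Osbpl6 (0.92, 194141 bases). All of these are long genes, and the part of length in the likeness was not tested. The genes most like Rbbp5, the member with the widest span of group means (0.52 on the log2 scale), were Lrp11 (0.97), Ibtk (0.96) and Cir1 (0.95).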

How the data were processed

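The authors deposited raw counts of reads per gene, made with featureCounts on build mm10 over whole genes, per the file headers. The submitters' processing notes also name Bowtie2, UMI-tools, deepTools and DESeq2, without their roles. Strand use and versions are not given in the sources used here, and 412 genes listed at more than 1 position were kept as 1 gene each. The tests used edgeR 4.0.16 and limma 3.58.1 in R 4.3.3: filterByExpr by group (minimum count 10, minimum total 15), TMM, and a robust quasi-likelihood fit with a mean per group over 20 libraries, in 13 comparisons. The common biological coefficient of variation was 8.77%. Replicates differed by 6.40 to 82.7 times the sampling variance (chi-square per degree of freedom, 19 pairs), so none was a duplicated library. Replicate numbers from the labels paired samples only for 4 h against 1 h of bicuculline in MM401 (correlations of deviations 0.13 to 0.28) and for MM401 against DMSO in bicuculline for 4 h (0.24 to 0.30), and blocking changed no call there. Alternatives were all 21 libraries, plain library totals, no filter, a replicate block, a lowess length correction (span 0.3), groups fitted alone, DESeq2 1.42.0, and each library left out. The code was tested on simulated data. Promoters came from RefSeq (GRCm38.p6). The members, lists and tests were chosen with earlier results of these data known. All 10 members are named. Partners are named where called with a log2 fold change of at least 0.5 in size against water. Exceptions are Men1, named after its values were seen, and the partners called at 1 h in both pretreatments that are set beside it. Like-pattern genes are the 3 with the highest Pearson correlation over 20 libraries. One gene of the list of MLL1 targets is not reported here.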

Additional observations from a re-analysis of the deposited data

How the results depend on the processing

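Of 29 calls among the 10 genes, 18 held in every alternative and 11 were lost in at least 1. With plain library totals the Kmt2a value at 1 h in DMSO turned to -0.0012, and the members called went from 5 to 10 (bicuculline 4 h, DMSO) and from 5 to 8 (1 h, MM401). Called members went from 7 to 4 at 1 h in DMSO with all 21 libraries and also with the length correction. At 4 h in DMSO they went from 5 to 3 with no filter, with the length correction and with DESeq2. The interaction at 4 h went from 0 to 1 with DESeq2. With each library left out in turn, called members numbered 4 to 6 (DMSO, 1 h), 3 to 6 (DMSO, 4 h), 1 to 3 (DMSO, 4 h against 1 h) and 0 to 1 (interaction at 4 h). Elsewhere they numbered 5 to 7 (MM401, 1 h), 4 to 6 (MM401, 4 h), 2 to 3 (MM401, 4 h against 1 h) and 0 in the MM401 against DMSO comparisons. With the replicate block, called members were 7 and 5 in DMSO, 6 and 6 in MM401, and 4 and 3 for 4 h against 1 h of bicuculline. Outside the 2 comparisons in which the numbers pair the samples, the correlations fell to 0.10 or lower for at least 1 pair or rested on 2 pairs. The log2 ratio of Setd1a to Setd1b in MM401 with water for 4 h was 0.80 and turned to -0.44 with the left-out library, which held 2 and 15 counts of these genes. The causes were not tested, other than by the construction of each alternative. Of 101 values not called, 55 changed sign and 19 gained a call in some alternative. Dpy30 had the lowest counts of the 10 genes, 445 to 902 per library, and its SE at 1 h in DMSO was 0.079, beside 0.10 for Kmt2b and 0.095 for Kmt2d, which had more counts.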
